A study of Mus musculus with 51 samples.

Results

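The genes described here build the desmosome and the cornified envelope of stratified epithelium, 31 of the 52636 genes counted in each library. They were taken by symbol from a list of such genes, and the Ensembl identifiers in the files were named with the GENCODE M21 annotation of GRCm38, the genome build of the files. By role they were 6 desmosomal cadherins (Dsc1, Dsc2, Dsc3, Dsg1a, Dsg2 and Dsg3), 6 plaque and membrane genes of the desmosome (Dsp, Jup, Pkp1, Pkp2, Pkp3 and Perp), 3 suprabasal keratins (Krt1, Krt10 and Krt78), 8 structural genes of the envelope (Ivl, Lor, Flg, Sprr1a, Sprr1b, Cnfn, Evpl and Ppl), the transglutaminases Tgm1 and Tgm3, 3 secreted products of stratified epithelium (Sbsn, Krtdap and Dmkn) and 3 other genes of such epithelium (Calml3, Lypd3 and Sfn). Transcripts were measured by bulk RNA sequencing of 51 libraries from sorted cells of the mouse mammary gland. The study compared mice with a wild-type estrogen receptor (WT) with mice carrying the receptor substitution D542G or Y541S, given vehicle or the receptor antagonist and degrader giredestrant, and included a further sorted cell population, N, from treated mutants.

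All mice were raised to 6 months of age and all received hormone pellets of E2 and P4 (estradiol and progesterone), the vehicle groups included. They were then dosed daily for 4 days with vehicle (MCT) or with giredestrant by mouth at 30 mg/kg. Mature luminal (ML) and basal cells were sorted from WT, D542G and Y541S mice under both treatments. Luminal progenitors (LP) were sorted from the giredestrant groups of the same genotypes. N cells came from giredestrant-treated D542G and Y541S mice, so no vehicle or WT group of N was available for comparison. Each of the 17 groups held 3 libraries. The labels do not state how the substitutions were introduced and in which cells, the surface markers of the N gate, or the animal behind each library, so p-values measure the spread between these libraries, which may be technical.

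Desmosomes are junctions that anchor the keratin filaments of neighbouring epithelial cells to each other. Desmocollins (Dsc) and desmogleins (Dsg) span the gap between the cells, while plakoglobin (Jup), the plakophilins (Pkp) and desmoplakin (Dsp) link them to the filaments inside. In the epidermis, cells that leave the basal layer switch to the keratins Krt1 and Krt10 and then build a cornified envelope, in which transglutaminases crosslink involucrin, loricrin and small proline-rich proteins into a protein shell. The normal mammary ductal epithelium has desmosomes but does not cornify.

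Of the 31 genes, 17 had a promoter entry in the RefSeq-based table for GRCm38.p6. The 250 bases before the start site were searched on both strands for TGANTCA, the motif of AP-1 factors, and for the core promoter element known as the TATA box, spelled TATAAA. The AP-1 motif was found in 8 of the 17 (47.1%; Lor, Sprr1b, Sprr1a, Ivl, Flg, Sbsn, Dmkn and Krtdap) and in 6.87% of all 27025 promoters. The TATA box was found in 8 of the 17 (47.1%; Tgm3, Lor, Sprr1b, Sprr1a, Ivl, Flg, Krtdap and Krt10) and in 13.0% of all promoters. The motif of grainyhead-like factors, AACCGGTT, and the palindromic estrogen response element, which is GGTCA followed after 3 bases by its reverse complement, were searched in the same way and were in 0 of the 17, and in 0.122% and 0.0629% of all promoters. The promoters of 4 genes that the results turn on are shown 5′ to 3′ on the gene's strand, with matches of the AP-1 motif and the TATA box in capitals; a match is a description of the letters and not a measured site.
Krt10, chr11:99389365-99389614, minus strand: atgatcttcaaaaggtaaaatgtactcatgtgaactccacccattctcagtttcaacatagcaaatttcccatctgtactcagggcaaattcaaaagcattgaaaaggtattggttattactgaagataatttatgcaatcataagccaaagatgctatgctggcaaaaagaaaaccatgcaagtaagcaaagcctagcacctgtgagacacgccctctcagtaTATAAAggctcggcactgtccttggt
Sprr1a, chr3:92485882-92486131, minus strand: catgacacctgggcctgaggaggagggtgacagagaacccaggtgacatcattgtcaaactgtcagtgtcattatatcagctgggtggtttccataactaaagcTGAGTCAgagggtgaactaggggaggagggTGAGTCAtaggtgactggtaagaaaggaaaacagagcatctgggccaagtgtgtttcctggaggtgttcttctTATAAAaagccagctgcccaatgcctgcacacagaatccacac
Krtdap, chr7:30787655-30787904, plus strand: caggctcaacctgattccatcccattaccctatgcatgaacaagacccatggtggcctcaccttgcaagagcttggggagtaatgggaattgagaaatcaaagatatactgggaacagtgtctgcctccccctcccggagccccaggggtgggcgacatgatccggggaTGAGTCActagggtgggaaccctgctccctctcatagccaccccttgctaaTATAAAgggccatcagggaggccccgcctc
Lor, chr3:92083143-92083392, minus strand: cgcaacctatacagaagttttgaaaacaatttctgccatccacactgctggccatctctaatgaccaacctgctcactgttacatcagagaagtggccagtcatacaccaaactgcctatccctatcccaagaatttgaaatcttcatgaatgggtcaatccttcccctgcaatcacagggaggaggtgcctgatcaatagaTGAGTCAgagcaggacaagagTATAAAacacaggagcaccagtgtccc
Sprr1a carried 2 AP-1 motifs, Krtdap and Lor carried 1 each, and all 3 had 1 TATA box. Krt10 held 1 TATA box and no AP-1 motif in this window.

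Libraries held 21.4 to 60.1 M counts (median 32.9 M). Levels are CPM, the counts of a gene per M counts of the library scaled with TMM factors, and log2 ratios carry the standard error (SE). A gene was called when its adjusted p, from edgeR's quasi-likelihood test with Benjamini-Hochberg adjustment over all genes tested, was under 0.05. The substitutions cannot be read from gene counts, and Esr1, which encodes the receptor, was measured at 257.4 to 320.2 CPM in WT vehicle ML, 67.95 to 94.72 CPM in D542G vehicle ML and 70.16 to 103.4 CPM in Y541S vehicle ML. Basal and myoepithelial markers (8 genes) summed to 19073 to 38236 CPM in basal libraries and to 99.47 to 981.6 CPM in ML libraries. Mature luminal markers (7 genes) summed to 3565 to 4256 CPM in WT vehicle ML but to 510.4 to 1765 CPM in D542G giredestrant ML, which overlapped the 794.3 to 1855 CPM of WT LP. In bulk libraries, fewer cells of a type and less RNA per cell cannot be told apart.

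The 8 skin markers of hair follicle, sebaceous gland and interfollicular epidermis need stating before the results. Their summed level was 233.3 to 708.7 CPM in the D542G N libraries and 286.7, 335.1 and 154.8 CPM in D542G giredestrant ML. In the remaining 45 libraries it ran from 2.021 to 59.43 CPM. The D542G ML libraries differed in which marker was high. Krt79, a keratin of the follicle infundibulum and sebaceous duct, was at 236.4 and 264.8 CPM in replicates 1 and 2 and at 5.064 CPM in replicate 3. Krt71, a keratin of the inner root sheath of hair, was at 101.4 CPM in replicate 3 and at 2.724 and 0.1288 CPM in the others. Lgals7, a keratinocyte galectin, had no count in any library and so added nothing to the sum. All of its exon bases are overlapped by another gene, Gm10648, so the lack of counts cannot be read as absent expression. Results that rest on D542G giredestrant ML are therefore also given without its replicates 1 and 2 and without WT giredestrant ML replicate 2 (59.43 CPM), a choice made after the data were seen. The D542G library that remains, replicate 3, still holds 154.8 CPM, so no fit of D542G giredestrant ML free of high skin markers could be made.

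Among the 31 genes, 20 had their highest group mean in N, 17 of them in D542G N and 3 (Perp, Evpl and Calml3) in Y541S N. The other 11 peaked elsewhere, for example Tgm1 and Krt78 in WT vehicle ML and Lor in D542G vehicle ML. Group means ran from 568.0 to 1095 CPM for Jup and from 193.1 to 2038 CPM for Perp, while Flg, Sprr1b and Sbsn stayed under a mean of 1 CPM in all 17 groups. Flg, the precursor of filaggrin, had at most 15 counts in a library, passed the filter in no fit of a whole panel and was too low to judge. Sprr1b reached 20 counts, Sbsn 28 and Cnfn, which encodes cornifelin, 64. In the fits of whole panels, Sprr1b and Tgm3 passed the filter only where N libraries were in the fit. Cnfn failed in ML fits, Krtdap in basal and WT fits, Dsc1 and Ivl in LP fits, and Sbsn in basal fits. Some genes passed through 1 group alone: Krtdap and Sbsn in ML fits and Krtdap in LP fits through D542G giredestrant cells, and Ivl and Dsg1a in the WT fit through vehicle ML and giredestrant ML. Counts and medians over the genes tested include them and are a description. Sbsn could not be told from Tmem147os, which overlaps 99.8% of its exon bases; overlaps covered 42.8% for Dsg2, 15.6% for Lypd3 and 9.9% for Krt10, and the labels do not state whether the counting used strand. Dsg1a has near-identical neighbours, and its counts are uncertain for that reason.

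**Figure D1:**
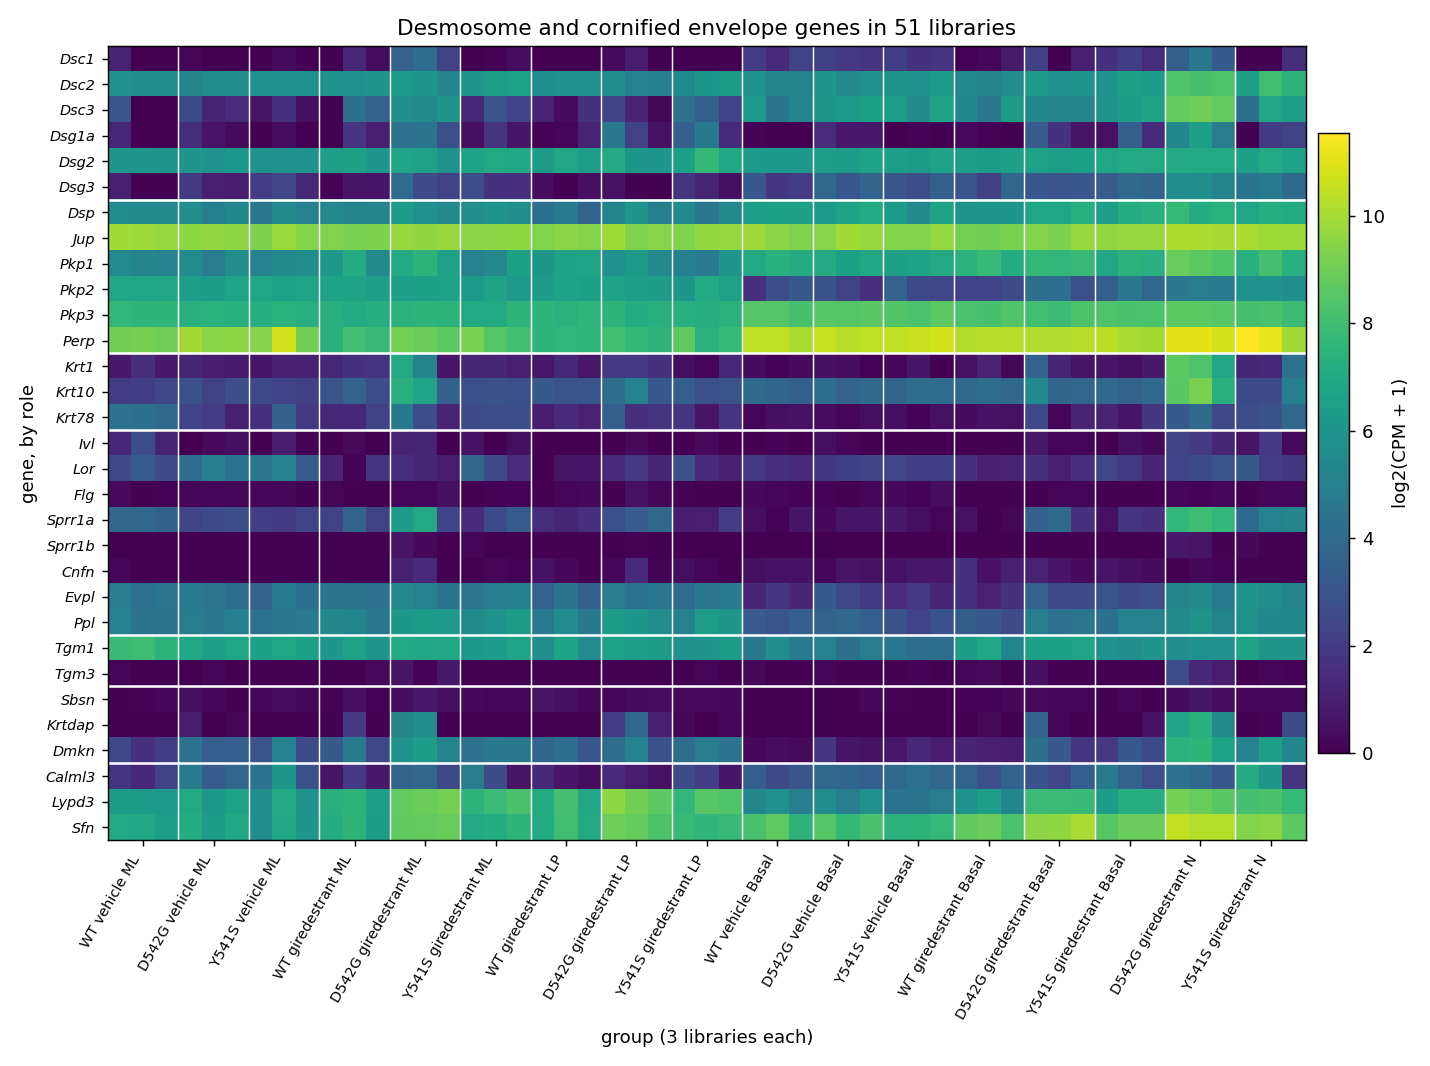
Level of each of the 31 genes (rows, by role) in each of the 51 libraries (columns, 3 for each of 17 groups) as colour on a log2(CPM + 1) scale. D542G N has the highest group mean of 17 genes; Flg, Sprr1b and Sbsn have group means below 1 CPM throughout.

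In WT glands given vehicle and the hormone pellets, the desmosomal and the envelope genes were split between basal and luminal cells. Of 27 genes tested in basal against ML cells with vehicle, 8 were higher and 9 lower in basal cells, beside 51.2% of all genes called. Among the desmosomal genes 6 of 12 were higher and 1 lower, and among the others 2 of 15 were higher and 8 lower; the median log2 ratio was -0.34 against 0.07 over all genes. The genes higher in basal cells were Dsc3, Dsg3, Pkp1, Krt10, Sfn, Perp, Dsp and Pkp3, by 0.80 to 4.14 on the log2 scale. Dsc3, the desmocollin of basal keratinocytes, was at 71.7, 21.2 and 35.4 CPM in basal and at 7.15, 0 and 0 CPM in ML libraries, a log2 ratio of 4.14. These groups did not overlap, and 2 of the ML libraries held none of its counts. Same-numbered libraries of these groups deviated together, and with the number as a block 21 genes were called, 9 higher and 12 lower, beside 55.6% of all genes; Dsc1 joined the higher ones, and Dsc2, Jup and Lypd3 the lower.

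The plakophilin Pkp2 went the opposite way, at 2.09, 5.86 and 8.78 CPM in basal and 113, 112 and 116 CPM in ML libraries, a log2 ratio of -4.37. Sprr1a, a small proline-rich envelope precursor, was at 0.343, 0.0655 and 0.61 CPM in basal and 13, 13.6 and 11.1 CPM in ML libraries (log2 ratio -5.19). Krt78, a type II keratin, was at 0.156, 0.393 and 0.465 CPM in basal and 20.1, 18.1 and 14.6 CPM in ML (log2 ratio -5.70). Basal and ML libraries did not overlap for any of these 3 genes. Ivl, which encodes involucrin, had 2 counts over the 3 basal libraries and 189 over the ML libraries. It entered the WT fit only through the vehicle ML group, so its place among the genes lower in basal cells is a description. Dmkn, Evpl, Tgm1, Krt1 and Ppl were also lower in basal cells, with log2 ratios of -3.83 to -1.55.

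After giredestrant, WT LP and ML cells were close: 1 of 27 genes was called, beside 1.12% of all genes. That gene was Dsp, at 17.8, 26.7 and 12.5 CPM in LP and 43.1, 35.6 and 37.6 CPM in ML, a log2 ratio of -1.02 (adjusted p = 0.037). The libraries did not overlap, but the call was lost without LP replicate 1, ML replicate 1 or ML replicate 3, which left 0 calls. With the replicate number as a block, since same-numbered libraries deviated together here, 2 genes were called, 1 higher and 1 lower. LP against basal cells gave 8 higher and 9 lower of 27, beside 41.9% of all genes. Pkp2 (4.39), Dmkn (3.67) and Sprr1a (3.25) were higher in LP, and Dsc3 (-5.25) and Dsg3 (-5.05) were lower, as in ML against basal cells. Calml3, at a mean of 0.8056 CPM in WT LP, was called lower in LP, with a larger log2 ratio than Sprr1a. By edgeR it was not called between vehicle ML and basal cells.

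**Figure D2:**
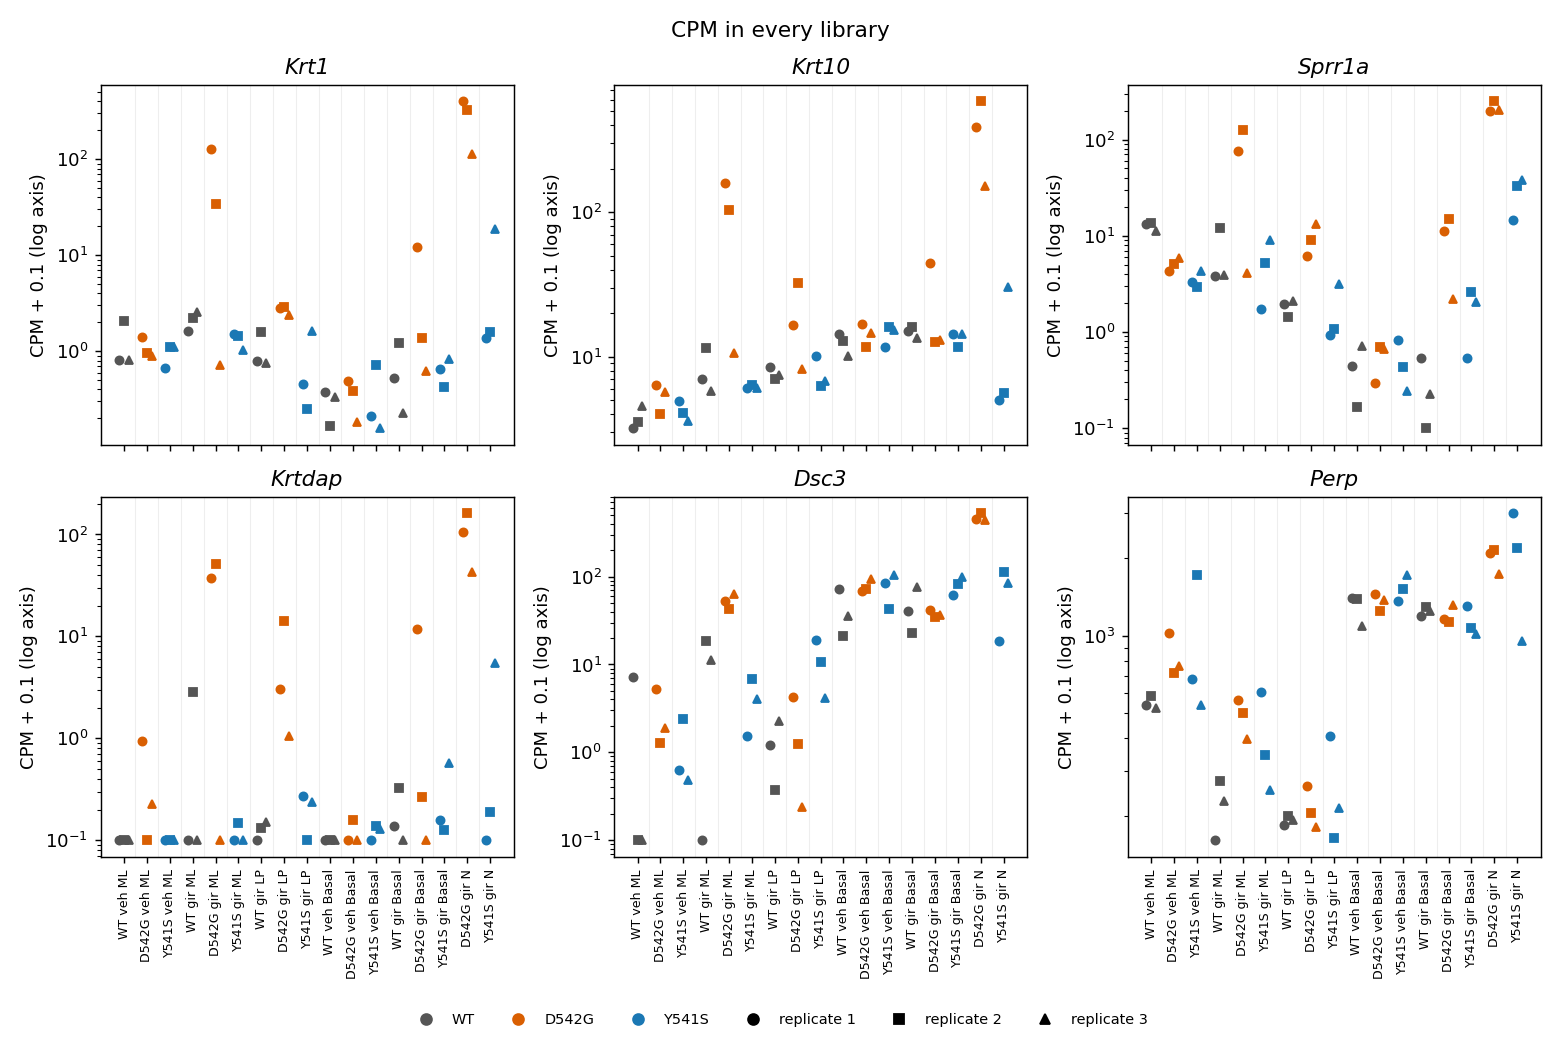
CPM + 0.1 of Krt1, Krt10, Sprr1a, Krtdap, Dsc3 and Perp (1 panel each) in every library on a logarithmic axis, by group, with the genotype as colour and the replicate as marker shape. In D542G giredestrant ML the points of Krt1, Krt10, Sprr1a and Krtdap are spread wide, with replicate 3 far below replicates 1 and 2, while those of Dsc3 and Perp lie close together.

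In WT ML cells giredestrant moved these genes about as often as other genes. Of 27 genes, 1 rose and 7 fell, a called share of 29.6% beside 34.1% of all genes called and 17% called lower, with medians of 0.10 for these genes and 0.08 for all genes. Tgm1, the membrane-bound transglutaminase of the envelope, fell from 220, 245 and 175 CPM with vehicle to 66.6, 96.3 and 61.1 CPM, a log2 ratio of -1.55 ± 0.19 (adjusted p = 2.47e-05). Krt78 fell from 20.1, 18.1 and 14.6 CPM to 1.52, 1.41 and 3.72 CPM (log2 ratio -2.998 ± 0.86, adjusted p = 0.0138). For both genes every treated library lay below every vehicle library.

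Lor, which encodes loricrin, fell from 4.64, 9.4 and 5.39 CPM to 1.14, 0.092 and 2.34 CPM (log2 ratio -2.43, adjusted p = 0.0282). Ivl fell from 1.42, 5.89 and 1.14 CPM to 0, 0.214 and 0 CPM. Dmkn, which encodes the secreted protein dermokine, rose from 4.68, 2.1 and 3.38 CPM to 8.72, 25.5 and 4.7 CPM (log2 ratio 1.88 ± 0.67, adjusted p = 0.0397). The treated and vehicle libraries did not overlap for these 3 genes, although Dmkn's treated replicate 3 lay just above the highest vehicle library. The Dmkn call was lost without any 1 of the vehicle libraries and without treated replicate 2, where the ratio was 0.95 (adjusted p = 0.297). Perp, Jup and Pkp3 fell as well, by 0.45 to 1.35 on the log2 scale. Jup and Tgm1 kept their calls whichever library was left out, and the count was 4 without treated replicate 1 or 2 and 5 without vehicle replicate 2. Among the markers, 3 of 7 mature luminal genes fell and 2 of 5 luminal progenitor genes rose, with summed progenitor levels of 1256 to 1753 CPM with vehicle and 1199 to 3606 CPM with giredestrant. Summed endothelial markers fell further, from 821.4 to 988.4 CPM with vehicle to 160.2 to 218.9 CPM with giredestrant. For all of these markers, their part in the result was not tested.

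In D542G ML cells giredestrant went with higher Krt1 and Krt10, of 3 suprabasal keratins. By edgeR, Dsc1 and Dsg1a were the called genes of 6 cadherins, both higher. Both keratins were far above vehicle in 2 of the 3 treated libraries, and both cadherins were above it in all 3. Of 27 genes, 10 rose and 1 fell, beside 20.6% of all genes called and 9.34% called higher; the medians were 1.62 for these genes and 0.05 for all genes. Among the desmosomal genes 3 of 12 rose, and among the others 7 of 15 rose and 1 fell. Krt1, the first keratin of suprabasal epidermis, was at 1.3, 0.868 and 0.784 CPM with vehicle and at 128, 34.4 and 0.617 CPM with giredestrant (log2 ratio 5.73 ± 1.11, adjusted p = 0.00397). Its partner Krt10 was at 6.26, 3.91 and 5.61 CPM with vehicle and at 160, 104 and 10.6 CPM with giredestrant (log2 ratio 4.06 ± 0.63, adjusted p = 0.00133). Treated replicate 3 lay below the vehicle libraries for Krt1 and above them for Krt10. Sprr1a was likewise high in treated replicates 1 and 2 alone, at 4.19, 5 and 5.77 CPM with vehicle and 75, 125 and 3.99 CPM with giredestrant (log2 ratio 3.70 ± 0.84). The secreted keratinocyte product Krtdap was at 0.85, 0 and 0.126 CPM with vehicle and at 37.5, 51.5 and 0 CPM with giredestrant. It entered the ML fit only through this treated group, so no test of it is given.

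Among the D542G ML cadherins, Dsc1, the desmocollin of upper epidermis, had 4, 0 and 0 vehicle counts and 11.3, 16.4 and 4.22 CPM after giredestrant (adjusted p = 0.00769). Dsg1a, a desmoglein of the same layers, went from 1.84, 0.587 and 0.251 CPM to 19.3, 21.1 and 6.13 CPM (log2 ratio 4.05, adjusted p = 0.0481). All treated libraries exceeded all vehicle libraries for both cadherins. The same held for Dsc3, which was not called, at 5.10, 1.17 and 1.79 CPM with vehicle and 52.8, 42.2 and 63.3 CPM with giredestrant. Dsg3 had a log2 ratio of 2.33 (adjusted p = 0.0712). DESeq2, a second method, called Dsc1 and Dsg3 among the cadherins and did not call Dsg1a. Summed basal markers were at 148.7 to 879.4 CPM with vehicle and 440.9 to 981.6 CPM with giredestrant, and their part in the result was not tested. Lypd3, which encodes a surface protein of the Ly6 family, rose from 126, 70.4 and 97.2 CPM to 435, 498 and 562 CPM (log2 ratio 2.29 ± 0.34, adjusted p = 0.000943), with treated replicate 3 the highest. Sfn (14-3-3 sigma), Ppl (periplakin), Pkp1 and Dmkn rose by 1.32 to 2.11 on the log2 scale. Lor fell from 15.8, 29.3 and 19.6 CPM to 1.87, 1.36 and 0.811 CPM (log2 ratio -4.06 ± 0.84, adjusted p = 0.00546), and the groups did not overlap.

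Without the 3 ML libraries named above, 4 of 29 genes tested were called in D542G ML, 3 higher (Lypd3, Sfn and Ppl) and 1 lower (Lor, log2 ratio -4.80, adjusted p = 0.0273), beside 11.2% of all genes. The lone treated library was then assumed to vary like those of the other groups. Flg and Tgm3, which failed the filter with all ML libraries, entered this fit. The Dsg1a ratio was 2.71. The Krt1 ratio turned to -0.74 (adjusted p = 0.485) and that of Sprr1a to -0.39 (adjusted p = 0.696), while Krt10 was at 0.94 (adjusted p = 0.0616) and Dsc1 at 6.61 (adjusted p = 0.0595). The skin marker sum rose with these genes, from 3.732 to 11.36 CPM in vehicle libraries to 154.8 to 335.1 CPM in treated ones, and 2 of its 5 tested markers were called higher. The summed luminal progenitor markers were also higher without overlap, at 1108 to 1534 CPM with vehicle and 3040 to 4880 CPM with giredestrant. The 9 tested of 15 further cornified envelope genes had a median log2 ratio of 5.32 in the fit of all ML libraries. Among them 6 rose, beside 9.34% of all genes called higher. They included Scel, which encodes the envelope precursor sciellin, at 7.761, 9.609 and 2.597 CPM after giredestrant against a vehicle mean of 0.03035 CPM. Cst6, a cystatin of the cornification pathway, was at 408.6, 612.7 and 0.6492 CPM after giredestrant, so again replicate 3 stood apart. The part of skin cells, of luminal progenitors or of these libraries in the result was not tested.

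**Figure D3:**
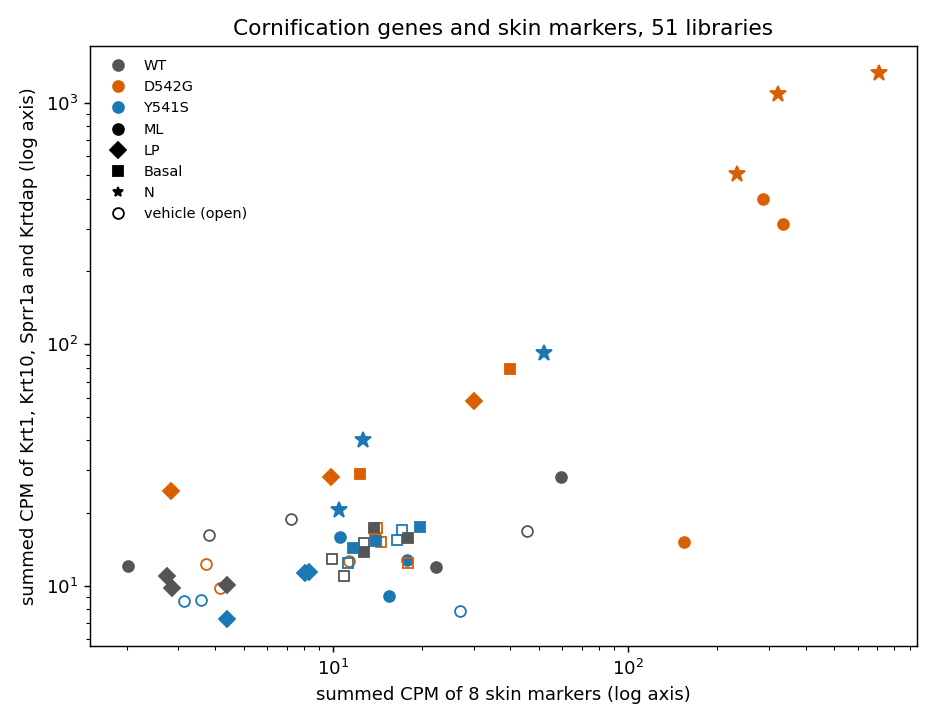
Summed CPM of the 8 skin markers (horizontal axis) against summed CPM of Krt1, Krt10, Sprr1a and Krtdap (vertical axis) in each of the 51 libraries, both axes logarithmic. The D542G N libraries and D542G giredestrant ML replicates 1 and 2 lie at the upper right, and D542G giredestrant ML replicate 3 combines 154.8 CPM of skin markers with 15.16 CPM of the 4 genes.

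The 4 genes Krt1, Krt10, Sprr1a and Krtdap together reached 100 CPM or more in 5 libraries. These were the D542G N libraries, at 1092, 1326 and 507.6 CPM, and D542G giredestrant ML replicates 1 and 2, at 401.0 and 315.5 CPM. A further 7 libraries lay between 25 and 100 CPM, the highest of them Y541S N replicate 3 (92.08 CPM), D542G giredestrant basal replicate 1 (79.14 CPM) and D542G giredestrant LP replicate 2 (58.16 CPM). Their skin marker sums were 51.82, 39.79 and 30.07 CPM.

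In Y541S ML cells giredestrant moved fewer of the genes, and the suprabasal keratins were not among them. Of 27 genes, 3 rose and 2 fell, beside 24.9% of all genes called, with medians of 0.42 and 0.02. Lypd3 rose from 49.4, 130 and 59.6 CPM to 174, 230 and 300 CPM (log2 ratio 1.47 ± 0.33, adjusted p = 0.00506). Ppl, a plakin that ties the envelope to keratin filaments, rose from 18.7, 23.3 and 26.5 CPM to 43.8, 60.1 and 78.2 CPM (log2 ratio 1.32 ± 0.23, adjusted p = 0.00139). Dsg2, the desmoglein of simple epithelia, rose from 60.1, 58.5 and 60.7 CPM to 102, 128 and 118 CPM (log2 ratio 0.87 ± 0.17, adjusted p = 0.0023). Treated and vehicle libraries did not overlap for these 3 genes, and the calls held whichever library was left out.

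Perp, a p53 and p63 target gene needed for desmosome assembly, fell in Y541S ML from 682, 1725 and 541.4 CPM to 603, 346 and 252 CPM (log2 ratio -1.38, adjusted p = 0.0161). Pkp2 fell from 108, 95.5 and 106 CPM to 73.7, 99.3 and 74.3 CPM (log2 ratio -0.41, adjusted p = 0.0212). Libraries of the groups overlapped for both, and vehicle replicate 2 stood apart for Perp; without it the Perp ratio was -0.69 (adjusted p = 0.125). Krt1 was at 1.4, 1.36 and 0.938 CPM in the treated libraries and Krtdap at 0, 0.0485 and 0 CPM, and neither passed the test. Other markers moved beside these genes in Y541S ML, with 3 of 8 basal markers, 3 of 5 fibroblast markers and 3 of 4 endothelial markers higher. Summed basal markers were at 99.47 to 196.4 CPM with vehicle and at 236.8 to 659.6 CPM with giredestrant, and their part in the result was not tested.

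**Figure D4:**
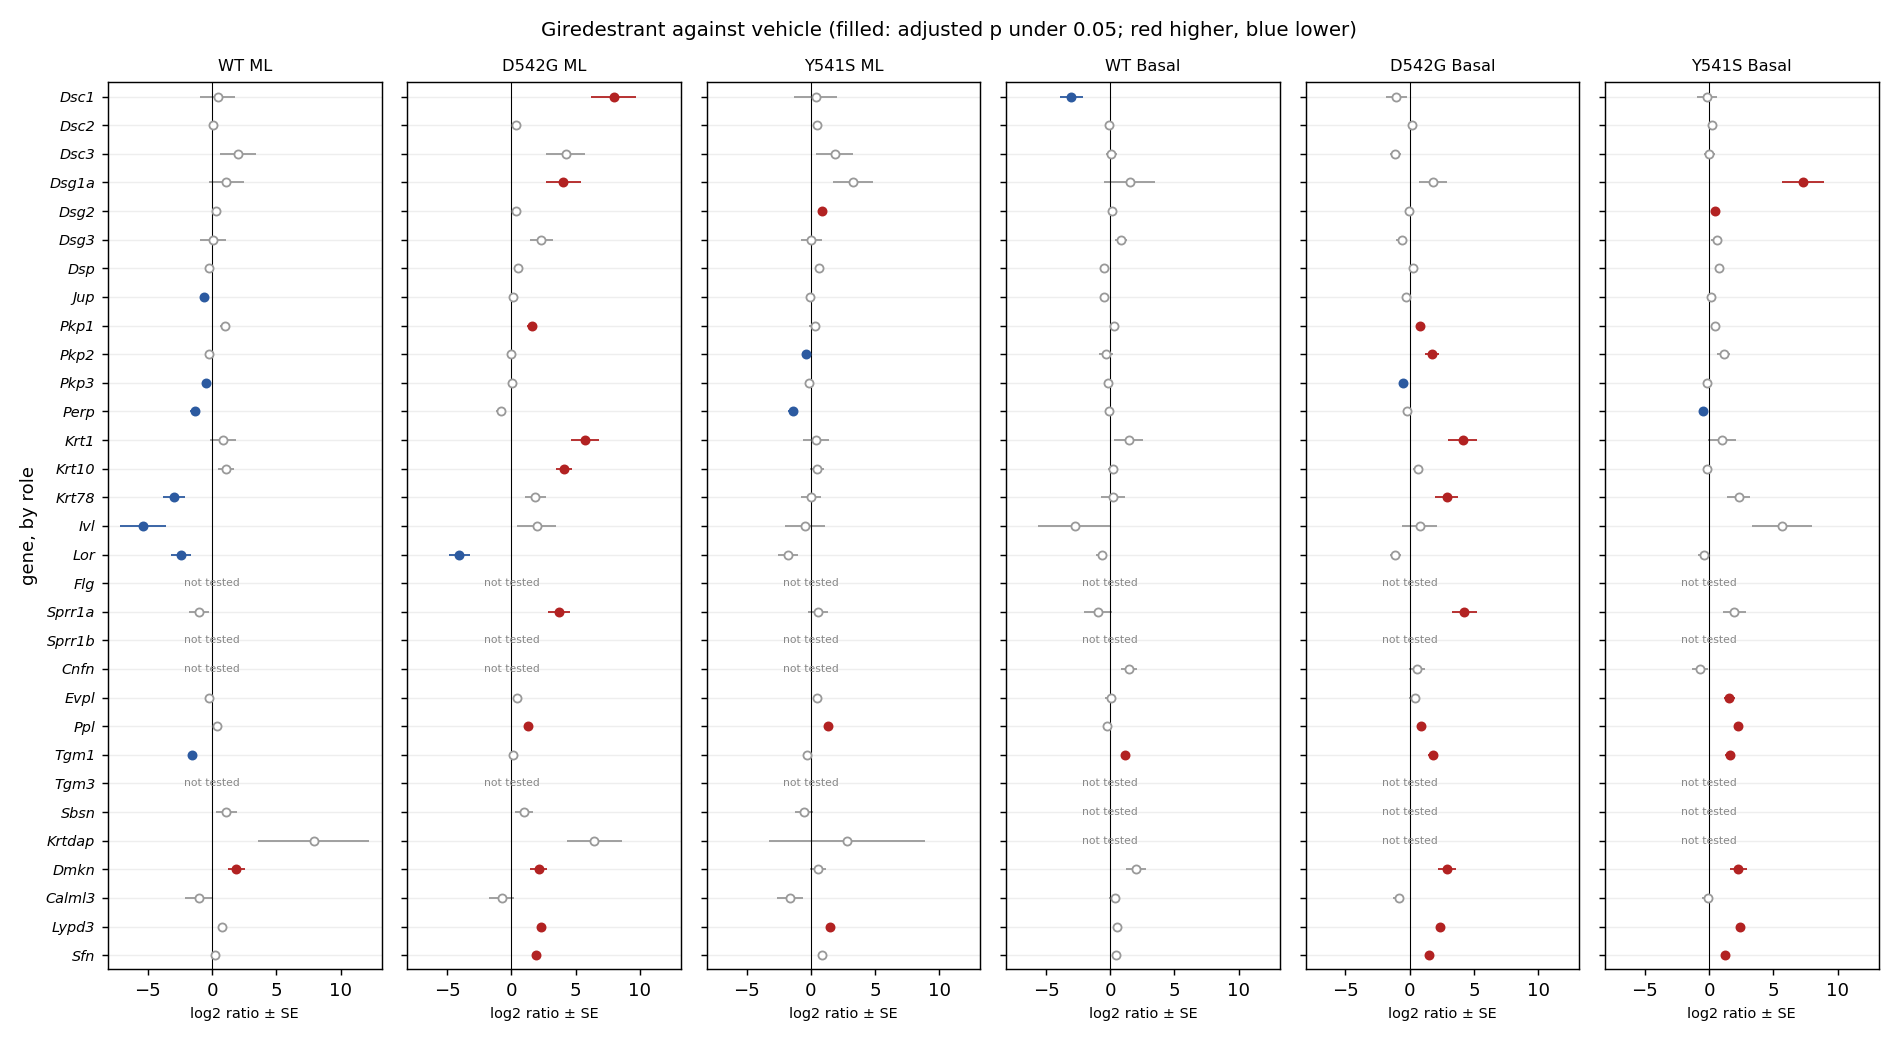
Log2 ratio of giredestrant to vehicle (horizontal axis) with its SE for each gene tested (rows, by role), in 6 panels by genotype for ML and basal cells; filled points were called, red for higher and blue for lower. Krt1, Krt10 and Sprr1a are high in D542G ML, Lypd3 and Ppl are high in both mutants and both populations, and Tgm1 is low in WT ML and high in basal cells.

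Basal cells of WT mice showed few calls after giredestrant. Of 26 genes, 1 rose and 1 fell, beside 11.1% of all genes, with medians of 0.12 and 0.02. Tgm1 rose from 23.5, 49.4 and 27 CPM to 79.4, 112 and 35.5 CPM (log2 ratio 1.14, adjusted p = 0.038), with overlapping groups. Dsc1 fell from 3.03, 1.64 and 3.92 CPM to 0.0786, 0.185 and 0.788 CPM (log2 ratio -3.02, adjusted p = 0.043), with no overlap. Neither call was stable: 0 genes were called without treated replicate 1 or 2 or vehicle replicate 1 or 3.

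In D542G basal cells 10 of 26 genes rose and 1 fell with giredestrant, beside 28.2% of all genes called and 12.6% called higher, with medians of 0.62 and 0.00. Sprr1a rose from 0.195, 0.597 and 0.566 CPM to 11.1, 14.8 and 2.12 CPM (log2 ratio 4.27 ± 0.95, adjusted p = 0.00506). Krt1 went from 0.391, 0.284 and 0.0838 CPM to 12, 1.27 and 0.529 CPM (log2 ratio 4.13, adjusted p = 0.014), and Dmkn from 2.54, 0.568 and 0.44 CPM to 16.9, 8.41 and 2.28 CPM (log2 ratio 2.91 ± 0.69). Treated replicate 1 was the highest for Krt1 and Dmkn, and the Dmkn groups overlapped.

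Lypd3 rose in D542G basal cells from 47.7, 29.2 and 55.9 CPM to 240, 233 and 225 CPM (log2 ratio 2.33 ± 0.31, adjusted p = 0.00073), a tight and separate group. Krt78 went from 0.293, 0.142 and 0.335 CPM to 4.8, 0.163 and 1.12 CPM (log2 ratio 2.89, adjusted p = 0.0278), with treated replicate 2 inside the vehicle range. Tgm1, Pkp2, Sfn, Ppl and Pkp1 rose by 0.77 to 1.78 on the log2 scale, and Pkp3 fell by 0.51. The count was 7 without treated replicate 1 or without vehicle replicate 3. All 5 luminal progenitor markers and all 4 pan-luminal markers were also higher in these libraries. The pan-luminal sum was 833.6 to 1529 CPM with vehicle and 2063 to 3845 CPM with giredestrant, and the progenitor sum 50.49 to 145.6 and 168.2 to 575.6 CPM. Their part in the result was not tested.

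Y541S basal cells gave 8 higher and 1 lower of 26 genes with giredestrant, beside 15.1% of all genes called and 8.15% called higher, with medians of 0.68 and 0.00. Dsg1a had 2 counts over the vehicle libraries and 506 over the treated ones, a ratio of 159.8 (exact 95% interval 44.01 to 1323, counting error only), and its treated libraries spread over 0.421, 10.2 and 1.71 CPM. Lypd3 rose from 20.1, 21.5 and 27.9 CPM to 82.2, 143 and 146 CPM (log2 ratio 2.38 ± 0.31, adjusted p = 0.000486). Ppl rose from 6.31, 4.07 and 6.5 CPM to 17.8, 32.9 and 33.1 CPM (log2 ratio 2.27 ± 0.28, adjusted p = 0.000366). Treated replicate 1 was the lowest treated library for all 3 genes, yet above every vehicle library.

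Dmkn rose in Y541S basal cells from 0.679, 1.54 and 0.866 CPM to 2.77, 7.78 and 4.82 CPM (log2 ratio 2.29, adjusted p = 0.0327). Tgm1 rose from 22, 16.3 and 16.9 CPM to 56.6, 50.8 and 64.6 CPM (log2 ratio 1.60 ± 0.34, adjusted p = 0.00581). Neither gene's groups overlapped. Evpl (envoplakin), Sfn and Dsg2 rose by 0.45 to 1.59 on the log2 scale, Perp fell by 0.49, and the count was 5 without treated replicate 2. Among markers, 4 of 5 luminal progenitor, 3 of 4 pan-luminal and 4 of 4 endothelial genes were higher. Summed pan-luminal levels were 866.2 to 1464 CPM with vehicle and 1412 to 2429 CPM with giredestrant, and their part in the result was not tested.

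With vehicle, the mutants differed little from WT in these genes. In ML cells D542G had 0 higher and 2 lower of 27, beside 19.6% of all genes, and Y541S 2 higher and 1 lower, beside 10.9%. Tgm1 was lower in both mutants, at 119, 85.6 and 110 CPM in D542G and 91.6, 110 and 93.6 CPM in Y541S against 220, 245 and 175 CPM in WT. Every mutant library lay below every WT library, with log2 ratios of -0.99 ± 0.18 (adjusted p = 0.0019) for D542G and -1.08 ± 0.18 (adjusted p = 0.00279) for Y541S. Both comparisons use the same WT libraries. Summed mature luminal markers were lower in the mutants too, at 865.6 to 1298 CPM in D542G and 977.0 to 2175 CPM in Y541S against 3565 to 4256 CPM in WT, and summed endothelial markers were at 245.6 to 268.1 and 210.8 to 355.1 CPM against 821.4 to 988.4 CPM. Their part in the result was not tested.

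Krt78 was lower in D542G vehicle ML, at 3.96, 3.17 and 1.03 CPM (log2 ratio -2.66, adjusted p = 0.0374). In Y541S vehicle ML, Calml3, a calmodulin-like protein of epithelium, was higher at 20.2, 67.6 and 6.53 CPM against 2.34, 1.4 and 4.13 CPM in WT (log2 ratio 3.61, adjusted p = 0.0489). Dmkn was higher too, at 6.76, 32.4 and 5.43 CPM against 4.68, 2.1 and 3.38 CPM (log2 ratio 2.16, adjusted p = 0.0495). None of these 3 genes overlapped with WT, and Y541S replicate 2 was the highest for both genes that were higher. Left-out fits gave 1 call for D542G without D542G replicate 1 or 2 or WT replicate 2 or 3, and 1 for Y541S without Y541S replicate 1 or WT replicate 2 or 3. In vehicle basal cells 0 of 26 genes were called by edgeR in either mutant, beside 0.0582% of all genes for D542G and 0.157% for Y541S. At an unadjusted p under 0.05 there were 5 genes for D542G and 8 for Y541S, and DESeq2 called 1 (Evpl) and 0. Shares of all genes under these criteria are not given, so these counts are a description.

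After giredestrant, D542G ML had 7 of 27 genes higher than WT and 0 lower, beside 2.6% of all genes called and 1.85% called higher, with medians of 1.73 and 0.02. The keratins Krt1 (log2 ratio 4.73, adjusted p = 0.0294) and Krt10 (3.52, adjusted p = 0.0102) were among them, against WT levels of 1.52, 2.15 and 2.46 CPM and of 6.87, 11.5 and 5.69 CPM. Dsg3, a desmoglein of basal keratinocytes, was at 15.3, 5.36 and 3.86 CPM in D542G and 0.083, 0.521 and 0.56 CPM in WT (log2 ratio 4.38, adjusted p = 0.0309), with no overlap. Sprr1a, Lypd3, Sfn and Ppl completed the list, at ratios of 1.15 to 3.40. No call held in every left-out fit: 0 genes were called without WT replicate 3, 3 without WT replicate 1 and 4 without D542G replicate 1. Without D542G replicates 1 and 2 and WT replicate 2, 2 were called (Lypd3 and Sfn) and the Krt1 ratio was -1.72 (adjusted p = 0.166).

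Y541S giredestrant ML had 2 of 27 genes higher than WT and 0 lower, beside 15.1% of all genes called. These were Dsg3, at 5.68, 2.08 and 1.9 CPM (log2 ratio 3.01, adjusted p = 0.0431), and Ppl (0.86, adjusted p = 0.0228). Dsg3 did not overlap with WT. The count was 0 without WT replicate 2 and 1 without WT replicate 1 or 3 or Y541S replicate 1 or 2. In the fit without D542G replicates 1 and 2 and WT replicate 2, neither Dsg3 (adjusted p = 0.101) nor Ppl (adjusted p = 0.0711) was called, and the 1 call was Dsg2 (log2 ratio 0.56, adjusted p = 0.0254).

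In giredestrant LP cells edgeR called 0 of 26 genes in either mutant, beside 0.0302% of all genes for D542G and 3.54% for Y541S. At an unadjusted p under 0.05 there were 10 genes for D542G and 7 for Y541S, and DESeq2 called 5 (Dsp, Sprr1a, Krtdap, Lypd3 and Sfn) and 3 (Dsg1a, Pkp1 and Lor). The shares of all genes under these criteria are not given, so these counts are a description and not a result about the members. Krtdap entered the LP fit only through the D542G group, so its call is a description. Lypd3 was at 765, 549 and 392 CPM in D542G, 197, 369 and 328 CPM in Y541S and 131, 278 and 116 CPM in WT. The D542G libraries lay above the WT libraries, with an adjusted p of 0.129. The count was 1 for D542G without WT replicate 2, and 1 for Y541S without Y541S replicate 3. Summed fibroblast markers were at 454.6 to 2071 CPM in D542G LP and 2200 to 7348 CPM in Y541S LP, against 145.3 to 289.3 CPM in WT LP. Summed basal markers were at 610.2 to 4646 CPM in Y541S LP against 293.5 to 626.9 CPM in WT LP. The part of these markers in the result was not tested.

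In giredestrant basal cells the envelope genes Sprr1a, Evpl and Ppl were higher in D542G than in WT, and Evpl and Ppl in Y541S. For D542G 7 of 26 genes were higher and 0 lower, beside 4.97% of all genes called and 2.53% called higher, with medians of 0.78 and -0.02. Sprr1a was at 11.1, 14.8 and 2.12 CPM against 0.432, 0 and 0.126 CPM in WT (log2 ratio 5.63 ± 1.06, adjusted p = 0.00899). Dsg1a was at 8.95, 2.22 and 0.529 CPM against 0.236, 0.0741 and 0 CPM (log2 ratio 5.23, adjusted p = 0.0394). Dmkn was at 16.9, 8.41 and 2.28 CPM against 1.18, 0.964 and 0.819 CPM (log2 ratio 3.19, adjusted p = 0.0202). None of these overlapped, and D542G replicate 3 was the lowest mutant library for each. Evpl and Lypd3 were higher by 1.94 and 1.93 on the log2 scale, followed by Ppl and Sfn. The count was 3 without D542G replicate 1 or without WT replicate 1 or 3. All 4 pan-luminal markers were higher as well, at a sum of 2063 to 3845 CPM against 1110 to 1146 CPM in WT, and their part in the result was not tested.

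For Y541S giredestrant basal cells 9 of 26 genes were higher than in WT and 0 lower, beside 14% of all genes called and 7.59% called higher, with medians of 0.81 and -0.02. Desmosomal genes made up 5 of the 9: Dsg1a (log2 ratio 5.30), Pkp2 (1.77), Dsp (0.96), Dsc2 (0.86) and Dsg2 (0.50). Pkp2 was at 10.1, 23.6 and 12.9 CPM against 4.05, 3.97 and 5.33 CPM in WT (adjusted p = 0.0413). Ppl was at 17.8, 32.9 and 33.1 CPM against 9.74, 7.71 and 5.42 CPM (log2 ratio 1.84 ± 0.28, adjusted p = 0.00111). Both were separate from WT. Dmkn, Evpl and Lypd3 were higher by 1.01 to 2.34 on the log2 scale. The count was 3 without WT replicate 2 or Y541S replicate 2 and 5 without WT replicate 3. Of 4 endothelial and 5 fibroblast markers, 2 and 2 were higher. Summed pan-luminal markers were at 1412 to 2429 CPM against 1110 to 1146 CPM in WT, and progenitor markers at 209.6 to 501.3 against 103.3 to 183.5 CPM, and their part in the result was not tested.

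Whether giredestrant acted differently on these genes in mutant and WT cells was tested as a difference of log2 ratios. In ML cells 6 of 27 genes differed in D542G, all in the positive direction, beside 6.57% of all genes called. Tgm1 fell in WT but was at a ratio of 0.14 in D542G, where the treated libraries held 124, 122 and 117 CPM and the vehicle libraries 119, 85.6 and 110 CPM. The difference for Tgm1 was 1.69 ± 0.26 (adjusted p = 0.00264) in D542G and 1.25 ± 0.26 (adjusted p = 0.0128) in Y541S. In Y541S ML it was the 1 call of 27, beside 5.79% of all genes. It was also the only difference in D542G ML that was called in every left-out fit; the others, Krt78 (4.87), Sprr1a (4.70), Krt10 (2.98), Sfn (1.68) and Jup (0.68), were not. The count for D542G ML was 1 without D542G vehicle replicate 2, WT giredestrant replicate 1 or WT vehicle replicate 2. It was 2 without D542G giredestrant replicate 1, D542G vehicle replicate 3 or WT vehicle replicate 1, and 3 without D542G giredestrant replicate 2, D542G vehicle replicate 1 or WT giredestrant replicate 3. Without D542G giredestrant replicates 1 and 2 and WT giredestrant replicate 2 it was 1 (Tgm1), and for Y541S ML it was 2 without Y541S vehicle replicate 2.

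In basal cells the difference was called for 2 of 26 genes in Y541S, beside 4.46% of all genes. Ppl rose in Y541S while WT ran from 9.05, 7.11 and 9.82 CPM with vehicle to 9.74, 7.71 and 5.42 CPM with giredestrant, and the difference was 2.50 ± 0.39 (adjusted p = 0.00364). That of Lypd3 was 1.89 ± 0.43 (adjusted p = 0.0213). The count was 1 without WT giredestrant replicate 1, Y541S giredestrant replicate 2 or Y541S vehicle replicate 2. For D542G basal cells edgeR called 0 of 26, beside 0.629% of all genes. There were 6 genes at an unadjusted p under 0.05 and 2 called by DESeq2 (Sprr1a and Lypd3), given as a description without shares of all genes. The edgeR count was 1 without D542G giredestrant replicate 3, WT giredestrant replicate 2 or WT vehicle replicate 1. The adjusted p was 0.0512 for Lypd3 and 0.0812 for Sprr1a.

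N cells held most desmosomal transcripts at higher levels than ML cells of the same mutants, beside markers of both basal and luminal cells. Trp63, a basal transcription factor, was at 682.8, 581.8 and 599.8 CPM in D542G N and 376.5, 726.4 and 217.4 CPM in Y541S N. Contractile Acta2, a marker of myoepithelium, was at 181.8 to 243.3 CPM in N and at 8507 to 15841 CPM in the mutants' giredestrant basal libraries. Esr1 was at 239.5 to 284.0 CPM in D542G N and 225.3 to 396.9 CPM in Y541S N. All 5 luminal progenitor markers were lower in N than in ML.

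Averaged over both mutants, N against ML gave 13 higher and 2 lower of 30 genes, beside 29.9% of all genes called and 15.7% called higher, with medians of 1.35 and -0.01. Of the 12 desmosomal genes 8 were higher and 1 lower, and of the 18 others 5 and 1. N against LP gave 20 higher and 2 lower, beside 36.4% called and 18.4% higher. Summed fibroblast markers were at 2200 to 7348 CPM in Y541S LP and 118.9 to 180.4 CPM in Y541S N. In D542G they were at 454.6 to 2071 CPM in LP and 369.7 to 841.2 CPM in N, and their part was not tested. N against basal cells gave 21 higher and 1 lower, beside 44.7% called and 22.1% higher, and there 14 of the 18 other genes were higher. The median log2 ratios were 2.08 and 1.45, against -0.01 over all genes in both. Called counts stayed within 13 to 17, 19 to 22 and 19 to 22 when a library was left out. Same-numbered libraries deviated together in Y541S, but N of D542G did not meet this rule. With the number as a block, 17 genes were higher and 3 lower against ML, beside 35.7% of all genes called. Lor, Evpl, Krtdap and Calml3 joined the higher genes and Cnfn the lower. The block gave 24 calls against LP (42.2% of all genes) and 23 against basal cells (50.7%).

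The cadherin Dsc3 stood first in N against ML. It was at 450, 526 and 439 CPM in D542G N and 18.4, 112 and 84.2 CPM in Y541S N, against 52.8, 42.2 and 63.3 CPM and 1.44, 6.81 and 3.96 CPM in the ML libraries of the same mutants (log2 ratio 3.66 ± 0.51, adjusted p = 2.04e-05). Within each mutant every N library exceeded every ML library. Dsg3 was at 49.1, 51.5 and 35.2 CPM in D542G N and 20.4, 25.8 and 15 CPM in Y541S N (log2 ratio to ML 2.60 ± 0.47, adjusted p = 0.000265).

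Perp was at 2088, 2151 and 1740 CPM in D542G N and at 2982, 2182 and 951 CPM in Y541S N, above the 252 to 603 CPM of all 6 ML libraries (log2 ratio 2.21 ± 0.26, adjusted p = 3.27e-06). Dsp, Pkp1, Pkp3, Dsc2, Jup and Sfn were also higher in N than in ML, by 0.42 to 1.81 on the log2 scale. Pkp2 was the exception among the plaque genes. It was at 23.4, 27.7 and 26.6 CPM in D542G N and 58, 60.3 and 52.9 CPM in Y541S N, under the 73.7 to 99.3 CPM of ML (log2 ratio -1.14 ± 0.22, adjusted p = 0.000609), and above basal cells (log2 ratio 1.43). Tgm1 was lower in N than in ML, at a log2 ratio of -0.58.

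Among the envelope genes and suprabasal keratins, Krt1, Krt10 and Sprr1a in N differed between the mutants. Krt1 was at 401, 329 and 112 CPM in D542G N and at 1.29, 1.49 and 18.9 CPM in Y541S N, and Sprr1a at 197, 249 and 201 CPM and at 14.4, 33.1 and 37.5 CPM. Against ML the average over mutants was called for both (log2 ratios 2.50, adjusted p = 0.038, and 2.07, adjusted p = 0.0135). With the replicate number as a block, whose rule D542G N did not meet, both were called in D542G alone (3.35, adjusted p = 0.0164, and 2.11, adjusted p = 0.045). Without the block neither was called in either mutant alone (adjusted p = 0.171 and 0.163 in D542G), with D542G ML replicates 1 and 2 as given above. With those 2 libraries left out, the D542G ratios were 8.82 for Krt1 (adjusted p = 0.0159), 5.75 for Sprr1a (adjusted p = 0.00894) and 5.15 for Krt10 (adjusted p = 0.0119), and the averages over mutants were 5.70 for Krt1 and 4.09 for Sprr1a. Against basal cells Krt1 (4.87), Sprr1a (4.35), Krtdap (4.02), Dmkn (3.72) and Tgm3 (3.65) were the furthest above. Dmkn was at 169, 184 and 95.9 CPM in D542G N and at 34.1, 88.1 and 38.4 CPM in Y541S N, against 2.28 to 16.9 CPM in all 6 basal libraries. Against LP the largest ratios were those of Dsc1 (6.41), Dsg3 (6.12), Dsc3 (5.38), Krt1 (5.13) and Ivl (4.49). Cnfn was lower in N than in LP and basal cells, with group means under 1 CPM throughout.

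**Figure D5:**
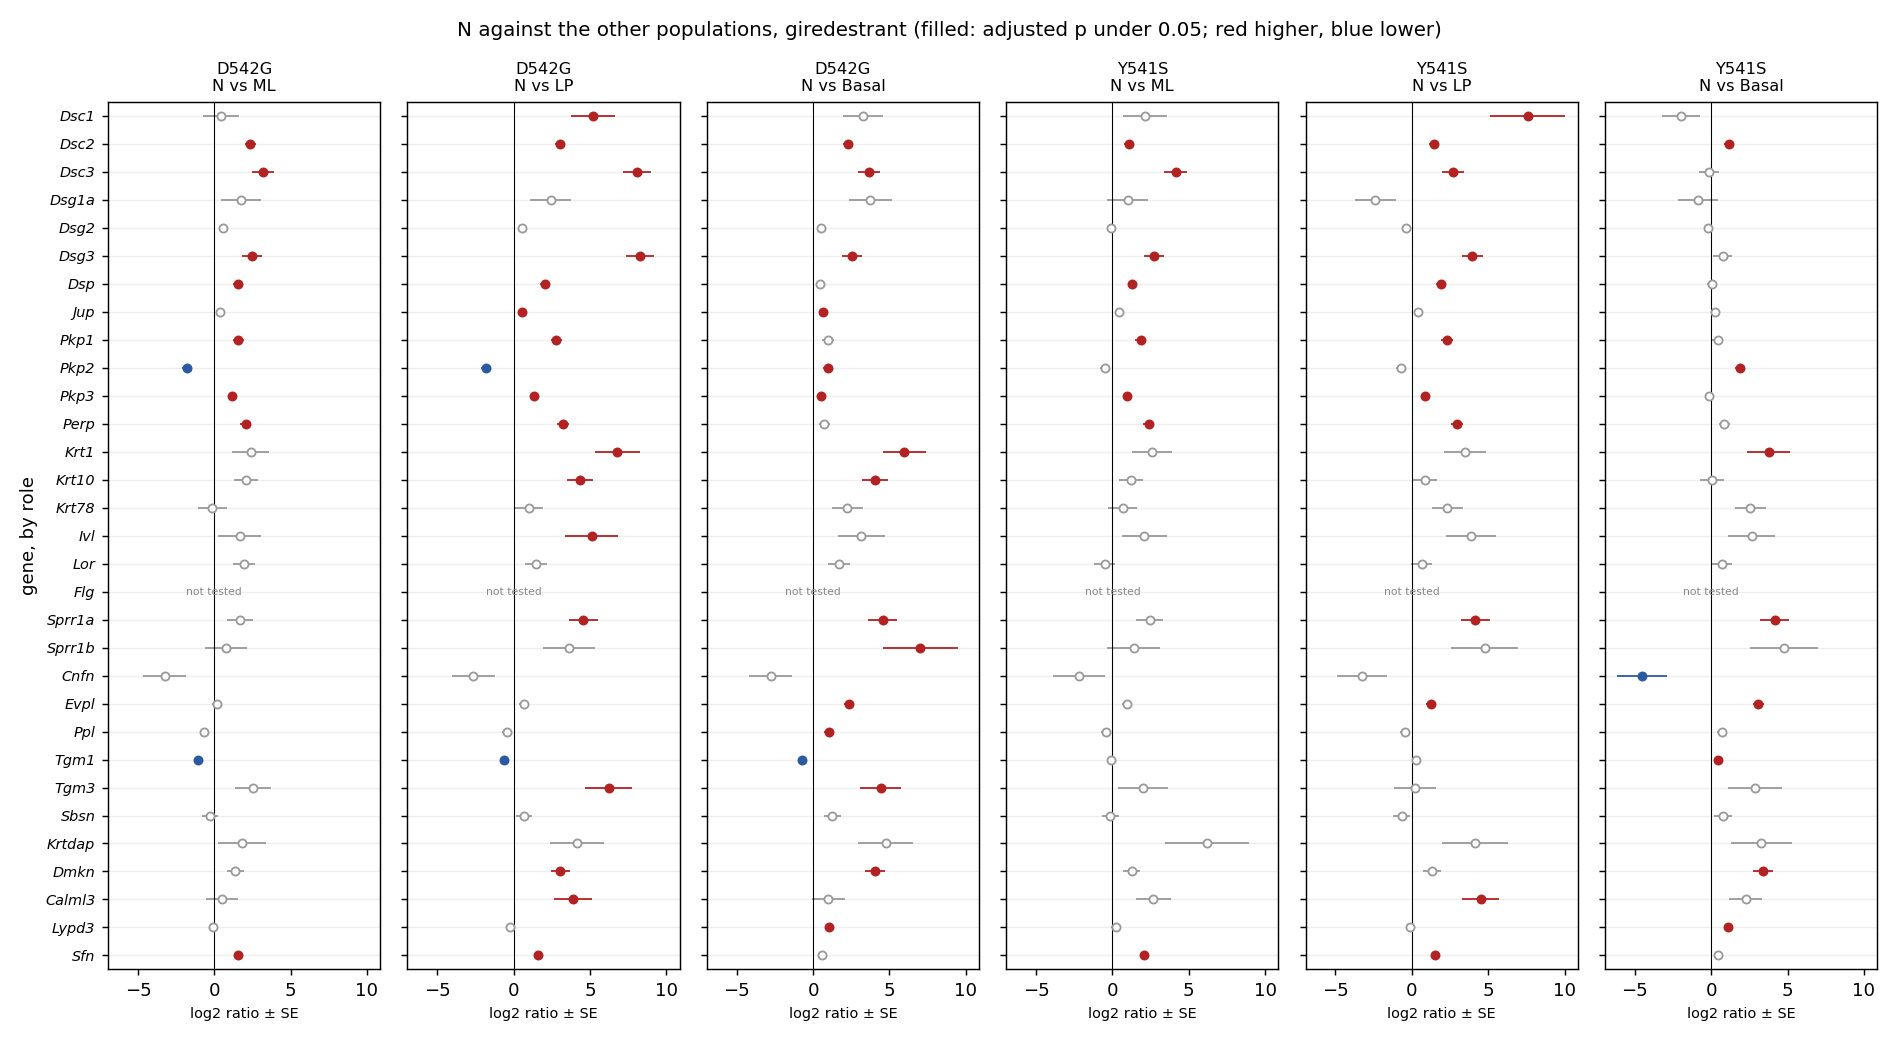
Log2 ratio of N to ML, LP and basal cells (horizontal axis) with its SE for each gene tested (rows, by role), in 3 panels for D542G and 3 for Y541S; filled points were called, red for higher and blue for lower. Against ML, Dsc3, Dsg3 and Perp are filled above 0 in both mutants, and Pkp2 (-1.78) and Tgm1 (-1.08) are filled below 0 in D542G.

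Each mutant was then taken alone from the same fit, a choice made after the data were seen. D542G N had 10 of 30 genes called against ML, 8 higher and 2 lower, beside 20.6% of all genes, and Y541S N had 8, all higher, beside 11.8%. Against LP the counts were 19 (26.0% of all genes) and 12 (22.0%), and against basal cells 16 (25.1%) and 9 (33.6%). Dsc3, Dsg3, Dsc2, Perp, Pkp1, Sfn, Dsp and Pkp3 were higher than in ML in both mutants, from 0.95 for Pkp3 to 4.13 for Dsc3, both in Y541S. Same-numbered Y541S libraries deviated together for N with ML (correlations 0.224 to 0.429), LP (0.202 to 0.324) and basal cells (0.218 to 0.300). With the number as a block Y541S N had 13 calls against ML, all higher (16.8% of all genes), 15 against LP (28.1%) and 13 against basal cells (39.8%). Sprr1a (2.63, adjusted p = 0.0241), Calml3, Dmkn, Evpl and Jup joined the calls against ML, and Dsc1 lost its call against LP (adjusted p = 0.063). The lower pair in D542G N was Pkp2 (-1.78) and Tgm1 (-1.08).

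Y541S N against D542G N gave 1 gene higher and 8 lower of 30, beside 9.12% of all genes called and 5.0% called lower, with medians of -1.05 and 0.03. Krt10 was at 4.94, 5.49 and 30.4 CPM in Y541S N and at 388, 586 and 152 CPM in D542G N (log2 ratio -4.77 ± 0.89, adjusted p = 0.00322). Krt1 differed by -5.25 ± 1.37 (adjusted p = 0.0223), Tgm3, an epidermal transglutaminase, by -5.13 and Dsc1 by -4.53. Sprr1a differed by -2.92 (adjusted p = 0.0417). All 5 genes except Dsc1 and Tgm3 were above 100 CPM in every D542G N library, and Y541S N replicate 3 was the highest of its group for Krt1, Krt10 and Sprr1a.

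Of the envelope genes Sprr1a alone was called; Ppl had group means of 44.56 and 45.89 CPM in Y541S and D542G N, Lor 4.62 and 5.26 CPM and Evpl 50.94 and 36.40 CPM. Krtdap ran the same way as Krt1, at 0, 0.0903 and 5.37 CPM in Y541S N and 106, 162 and 42.7 CPM in D542G N, but was not called. Dsc3, Sfn and Pkp3 were lower in Y541S N, with log2 ratios of -2.72 to -0.50, and Pkp2 was higher by 1.14 on the log2 scale. Calls of Krt10 and Sfn held in every left-out fit. The count was 2 without Y541S replicate 1, 3 without D542G replicate 1, 4 without D542G replicate 2 or 3, and 5 without Y541S replicate 2. Among the skin markers, Krt79 was at 224.4, 381.8 and 164.9 CPM in D542G N and 7.368, 10.34 and 34.11 CPM in Y541S N. Krt77, another keratin of this marker list, was at 82.05, 321.6 and 66.35 CPM in D542G N and 2.677, 1.671 and 16.94 CPM in Y541S N. The marker sum was 233.3 to 708.7 CPM in D542G N and 10.46 to 51.82 CPM in Y541S N, 2 of 6 tested markers were called lower, and their part in the result was not tested.

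Other genes of these pathways were counted from lists. Of 9 hemidesmosome genes, which fix basal cells to the basement membrane, 7 were higher and 0 lower in N than in ML, 7 and 0 than in LP, and 2 and 4 than in basal cells. The shares of all genes called in these comparisons were 29.9%, 36.4% and 44.7%. Col17a1, a transmembrane collagen of hemidesmosomes, was at 703.0, 571.4 and 504.8 CPM in D542G N and 338.5, 586.1 and 223.1 CPM in Y541S N, with a log2 ratio to ML of 4.52. Trp63 was higher in N than in ML by 4.18, and its ratio to basal cells was 0.12 (adjusted p = 0.836). Of 11 tested further cornified envelope genes, 7 were higher in N than in basal cells, beside 22.1% of all genes called higher. Casp14, a caspase of cornification, was at 5.634, 7.12 and 5.815 CPM in D542G N and 0.851, 0.2935 and 0.4087 CPM in Y541S N. Among the same 11 genes 0 were higher and 5 lower in Y541S N than in D542G N, beside 9.12% of all genes called and 5.0% called lower. The lower genes were led by Klk7 (-5.44), Cst6 (-5.04) and Scel (-4.08). Of 13 tested regulators of stratification 4 were higher and 2 lower in N than in ML, of 10 adherens junction genes 2 and 2, and of 7 barrier lipid genes 2 and 0. All genes were called at 29.9% there, so these counts are a description. Hemidesmosome genes also moved in Y541S basal cells with giredestrant, with 3 of 9 higher and 0 lower, and against WT giredestrant basal cells 5 were higher and 1 lower.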

How the data were processed

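Per the labels' protocols, cells were sorted from mammary glands, and Nextera XT libraries were prepared from the cDNA of RNA isolated with a micro-scale Qiagen kit. Groups came from the titles and the cell type labels; the source name, which calls every sample mature luminal, was not used. The authors deposited raw counts per gene as unscaled whole numbers, per the file headers. The submitters' processing notes name GRCm38 as the build; the sources used here state no aligner, counter or annotation. Among 52636 genes, 52489 were named in GENCODE M21. Libraries of a group differed by more than sampling noise (chi-square per degree of freedom 21.9 to 283.3).

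Counts were fitted with edgeR 4.0.16 (limma 3.58.1, R 4.3.3) by the quasi-likelihood F test, with TMM factors and filterByExpr (minimum count 10, minimum total 15), in 5 panels: 18 ML libraries (17181 genes tested), 18 basal (17173), 9 LP (16569), 24 giredestrant libraries of the mutants for N (18247) and 15 WT (17185). The SE is the log2 ratio's size over the square root of F. The 27 comparisons shared control groups within a panel. The members and lists were chosen with earlier results of these data known. Genes were named by size: values in every library for up to 5 called members per comparison with the largest log2 ratios whose higher group reached 1 CPM, and up to 3 called genes of the other lists; a few further members, such as Krtdap in D542G ML, were chosen after their values were seen. Fits were tested on simulated counts. Alternatives were DESeq2 1.42.0, its size factors in edgeR, no filter, 1 fit of all 51 libraries, a replicate block and each library left out. Same-numbered libraries of 1 genotype and treatment deviated together (every correlation over 0.1) in 11 of 16 pairs of populations: 3 of 4 in WT, 2 of 6 in D542G and all 6 in Y541S (0.193 to 0.452). There the numbers were taken as pairs. The N populations of D542G did not meet this with any other population, and no pair of groups across genotypes or treatments did (0 of 55). D542G N came close with ML (0.097 to 0.114), and the correlations were 0.069 to 0.148 with LP and -0.003 to 0.035 with basal cells. The interval of the Dsg1a count ratio is exact and covers counting error only.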

Additional observations from a re-analysis of the deposited data

Results flagged for a closer look

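The log2 effect of giredestrant differed between mutant and WT cells, by a test of the difference itself, for 6 genes in D542G ML cells: Krt78 (4.87), Sprr1a (4.70), Krt10 (2.98), Tgm1 (1.69), Sfn (1.68) and Jup (0.68). In Y541S the difference was called for Tgm1 in ML cells (1.25), and for Ppl (2.50) and Lypd3 (1.89) in basal cells. For Krt78 the effect was 1.87 in D542G ML, which did not pass the test, and -2.998 in WT ML. Without D542G giredestrant ML replicates 1 and 2 and WT giredestrant ML replicate 2, the D542G effect was -1.25 (adjusted p = 0.39) and the difference 1.49 (adjusted p = 0.455), and Tgm1 (1.84, adjusted p = 0.011) was the only difference called in D542G ML. The skin marker sums of D542G giredestrant ML (154.8 to 335.1 CPM) stand beside the keratin and Sprr1a values, and their part was not tested.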

How the results depend on the processing

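Values are numbers of genes called, unless a gene is named. They are given without the share of all genes under each setting and describe only how the counts move. DESeq2 gave 1 for D542G against WT in vehicle basal, 11 and 5 for D542G and Y541S against WT in giredestrant ML, 5 and 3 in LP, 11 for D542G in basal, 10 (D542G ML), 3 (Y541S ML) and 2 (D542G basal) for the differences of effects, and 4 for WT LP against ML. The fit of all 51 libraries gave 1 for giredestrant in WT basal, 4 for Y541S against WT in giredestrant ML, 4 and 6 for D542G and Y541S in LP, 1 for the D542G basal difference and 0 for WT LP against ML. No filter gave 3 for D542G LP and 2 for the D542G basal difference. The replicate block gave 0 for WT basal, 1 for Y541S against WT in giredestrant ML and 2 for WT LP against ML. For D542G N alone, whose numbers did not meet the rule for pairs, it gave 17, 23 and 22 against ML, LP and basal cells. The block ended 12 of the 88 named calls in all. Without D542G giredestrant ML replicates 1 and 2 and WT giredestrant ML replicate 2 the counts were 4 for giredestrant in D542G ML, 2 and 1 for D542G and Y541S against WT in giredestrant ML and 1 for the D542G ML difference, and Krt1 reversed to -0.74 and -1.72. N in Y541S alone gave 8, 12 and 9 against ML, LP and basal cells. Leaving out 1 library gave, for giredestrant against vehicle, 4 to 9 in WT ML, 0 to 2 in WT basal, 7 to 12 in D542G basal and 5 to 9 in Y541S basal. For mutant against WT it gave 1 to 2 (D542G) and 1 to 3 (Y541S) in vehicle ML, 0 to 7 and 0 to 3 in giredestrant ML, 0 to 1 in LP for both, and 3 to 7 and 3 to 8 in giredestrant basal. The differences of effects ran from 1 to 9 (D542G ML), 1 to 2 (Y541S ML), 0 to 1 (D542G basal) and 1 to 3 (Y541S basal), Y541S against D542G N from 2 to 7 and WT LP against ML from 0 to 1. Over all alternatives for the 88 named values, 917 of 1135 kept direction and call, 216 lost the call and 2 reversed; the cause was not tested. With 3 libraries a group, levels near 1 CPM limit what can be said of Ivl in ML cells and of Dsg1a in basal cells.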
